A study of Homo sapiens with 2 samples.

Results

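The regions described here are 1450 H4R3me2a peaks that lie inside coding exons and away from promoters, of 33349 peaks on chromosomes 1 to 22 and X (4.35%, 95% exact interval 4.13 to 4.57%). A peak was taken when its summit lay in the coding sequence of a GENCODE protein-coding gene, in no annotated UTR, and over 1 kb from every annotated start of a protein-coding gene or transcript (TSS). The measured values of a peak played no part in the choice beyond the peak being in the authors' list. Both libraries came from HCT116, an established colorectal carcinoma cell line, given no drug and fixed with formaldehyde before the chromatin was sonicated. Chromatin pulled down with an H4R3me2a antibody gave 1 library, and input DNA gave the other. Without replicates there is no replicate error on any value, and no test between conditions was possible. Intervals are at 95% and cover counting error only. The identity of the cells cannot be checked against marker genes, since no expression was measured here.

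H4R3me2a is the asymmetric dimethylation of arginine 3 in the tail of histone H4. PRMT1 places most of it, and CARM1 (PRMT4) is a related enzyme best known for arginine methylation of histone H3. The mark is known as a neighbour of active transcription, and most attention has gone to promoters and enhancers. Coding exons differ from the introns around them in base composition, in conservation and in nucleosome occupancy, so a chromatin mark can meet them in another sequence context than it meets introns.

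The 10 coding-exon peaks with the highest fold enrichment show what such a site looks like, and the bases around some of their summits are printed below. Sequences are GRCh38, 30 bases each, 5' to 3' on the strand of the gene, with exon bases in capitals and intron bases in lower case. The first set gives the summit of the highest-fold peak, in SH2B3, an adaptor protein that restrains cytokine receptor signalling, with both edges of its exon, because this peak covers the whole exon.
SH2B3 summit, chr12:111446986-111447015, plus strand: GCAGCTGAATTCATGGATGGCTGAGCTCTC
SH2B3 exon start, chr12:111446927-111446956, plus strand: cttcctccctgccagGTGAAGGACCGGACA
SH2B3 exon end, chr12:111447019-111447048, plus strand: GTGCACAGGCCGAGGgtgaggtcctgggcc
The SH2B3 peak spanned 270 bp over coding exon 3 of 7, which is 92 bp long. Of the peak, 57.4% lay in coding sequence of any transcript, which includes coding bases beyond this exon. The peak had a pileup of 15 fragments over a recovered background of 1.23 and a fold of 7.17, the highest of all coding-exon peaks. Pileup, fold and the q-values are the authors' values for each peak and serve only to describe and rank peaks within the list. The second set gives the edges of coding exon 32 of 42 in MYH14, a non-muscle myosin heavy chain, whose 249 bp also lay wholly inside its peak.
MYH14 exon start, chr19:50281579-50281608, plus strand: ctctcctcccctcagCTTTCCGAGTGGCGG
MYH14 exon end, chr19:50281828-50281857, plus strand: CGCAAGTTTGACCAGgtggggcacctcagt
The MYH14 peak was 310 bp wide with a pileup of 16 and a fold of 7.01. In both genes the intron bases at the exon start hold the pyrimidine run and the AG of the splice acceptor, and the exon end is followed by the GT of the splice donor.

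The third set gives summits from both ends of base composition over the surrounding 401 bp, namely 3 of the members lowest in GC content, of which CHTOP ties with RASAL2, and the 3 with the most CpG. They were chosen after their values were seen.
ATP5MC3 summit, chr2:175179114-175179143, minus strand: TGGTGCAGGTGCTGCAACAGTAGGAGTGGC
MCL1 summit, chr1:150577412-150577441, minus strand: GAATGTGCTGCTGGCTTTTGCAGGTGTTGC
CHTOP summit, chr1:153636616-153636645, plus strand: GTGCTAAAAAGCACCACCAAGATGTCTCTA
AJM1 summit, chr9:136847089-136847118, plus strand: GGCGCGCGCGCGAGGTGGCCTTCATCCACA
GRIN2D summit, chr19:48443515-48443544, plus strand: TGCTCGCACGATGGCCTGGACGGCGGCTGG
GAL3ST2 summit, chr2:241803764-241803793, plus strand: GCCCGAGACCCGGGAGCGCGCGCGGAGCTG
In 401 bp, ATP5MC3, a subunit of the mitochondrial ATP synthase, had 40.1% GC and 2 CpG, MCL1, an anti-apoptotic BCL2 family protein, 41.6% and 0 CpG, and CHTOP, a chromatin protein that binds PRMT1, 42.1% and 8 CpG. AJM1 had 74.8% GC and 66 CpG, GRIN2D, an NMDA receptor subunit, 80.8% and 62 CpG, and GAL3ST2 74.6% and 61 CpG. The 30 bases at a summit need not match their surroundings, since those of ATP5MC3 are 60% and those of MCL1 53.3% GC. The peaks of ATP5MC3, MCL1 and CHTOP were low, with pileups of 7, 8 and 8 and folds of 3.39, 4.45 and 4.45.

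The remaining high-fold members were spread over exons of every kind. PROX2 had a fold of 7.14 in the first of its 4 coding exons, and LRRC8E, a subunit of volume-regulated anion channels, had 7.10 over a peak 684 bp wide in its last coding exon. TMEM275 reached 7.01 in a gene with a single coding exon. FAM171A1 had 6.92 in its last exon, 35446 bp from the nearest TSS, and PAK6, a p21-activated kinase, had 6.84 in coding exon 3 of 8. VGF, a neuropeptide precursor, had 6.75, HELZ2, a nuclear receptor coactivator, 6.66, and CSRNP2 6.53. The pileups of these 10 peaks ran only from 11 to 17 fragments. Folds of 6 or more were given to 45 members (3.10%), against 3.51% of all peaks, and a −log10 q of 5 or more to 58 members (4.00%), against 3.84% of all peaks, so members were no more often among the strongest peaks than the list as a whole.

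The widest members were of another kind. CDT1, a replication licensing factor, held a peak of 1677 bp with a fold of 5.49 that covered a whole internal exon of 153 bp. It ran past this exon into introns and other coding sequence, with 42.3% of it coding. The next were 1286 bp in BAHCC1, 1152 bp in ZNF48, 1078 bp in HPS6 and 1001 bp in ZFP36L2, an RNA-binding protein that promotes mRNA decay. Widths of 500 bp or more were found for 72 members (4.97%, 3.90 to 6.21%), against 3.53% of all peaks and 2.33% of intron peaks. The share was 3.38% of 3' UTR peaks and 5.97% (5.51 to 6.45%) of promoter peaks.

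Most members were modest. Their median width was 198 bp (193 to 205), against 185 bp for all peaks, 177 bp for intron peaks, 190 bp for 3' UTR peaks and 205 bp for promoter peaks. The median pileup was 11 fragments, against 10 for all peaks, and members ranged from 5 to 24. The median fold was 4.13 (4.09 to 4.2), against 4.18 (4.16 to 4.19) for all peaks, 4.08 for 3' UTR peaks, 4.12 for intron peaks and 4.26 for promoter peaks. Fold and pileup differed little between kinds of exon, with median folds of 4.12 in internal, 4.15 in last, 4.26 in first and 4.11 in single coding exons. The recovered background was higher at members, with a median of 1.81 fragments (1.75 to 1.91), against 1.54 in all peaks, 1.78 in 3' UTR peaks and 1.54 in intron peaks. A background of 2.5 fragments or more was found at 24.6% of members, against 16.5% of all peaks, and in that range the median fold was 3.56 for members and 3.53 for all peaks. The recovered background is computed from the fold and the pileup, so it is no independent measure, and its part in the differences of fold between classes was not tested. At the 1 kb limit of the rule, 56 members up to 100 bp beyond it had a median fold of 4.26 and a median GC content of 63.1%, against 4.33 and 63.5% for 68 coding-exon peaks up to 100 bp too close to a TSS.

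Coding exons were dense in peaks. The 17.6 Mb of coding sequence that could hold a member carried 82.5 peaks per Mb (78.3 to 86.9), against 35.1 in 3' UTRs, 10.8 in introns, 4.58 in intergenic sequence and 80.1 at promoters. The density was 7.20 times that of all sequence (6.84 to 7.57). The classes came closer together when GC content was held fixed. The rate of all peaks outside promoters, members included, in each 2% step of GC content gave the number of peaks that a class would hold from its GC content alone. Members numbered 1.54 times that number (1.46 to 1.62), against 1.69 (1.60 to 1.77) for 3' UTRs, 1.21 (1.19 to 1.23) for introns and 0.692 (0.676 to 0.708) for intergenic sequence, and promoters reached 1.65 (1.62 to 1.69) on the same rate. By this measure coding exons stood above introns, while their interval overlapped that of 3' UTRs. Over the GC-based number, peaks outside promoters were also denser on some chromosomes than on others. The number was therefore also scaled to all peaks outside promoters on the same chromosome, a comparison chosen after seeing the data. The value for coding exons was then 1.41 (1.34 to 1.48).

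The dependence on GC content was steep within coding exons themselves. Coding sequence below 40% GC made up 28.3% of what could hold a member and held 0 members, with an upper limit of the exact Poisson interval of 0.741 per Mb. At 40 to 50% GC there were 7.64 members per Mb, at 50 to 60% 92.4, at 60 to 70% 289 (270 to 309) and at 70 to 80% 350 (298 to 410). Sequence of 60 to 70% GC was 17.1% of the total and held 60% of the members. At the same GC content introns had fewer peaks per Mb at every step, with 4.17, 45.1, 231 and 167 (143 to 195), while 3' UTRs had 6.55, 81.4, 322 and 322 (230 to 439). The intron density was lower at 70 to 80% GC than at 60 to 70%, and that of coding exons was not.

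**Figure D1:**
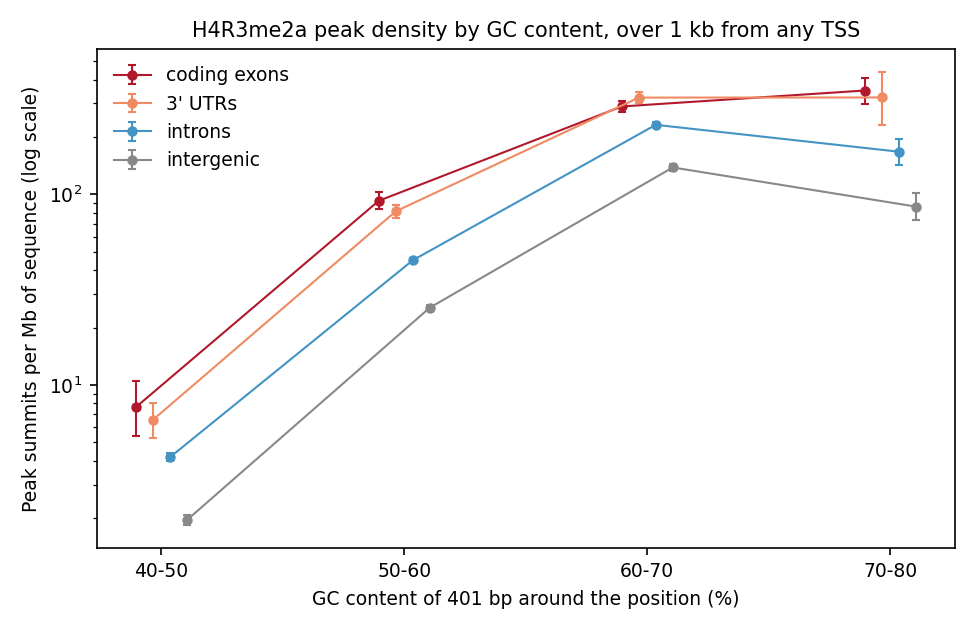
Peak summits per Mb (log scale) against the GC content of the 401 bp around each position, for coding exons, 3' UTRs, introns and intergenic sequence over 1 kb from any TSS; points are densities and bars 95% Poisson intervals. Coding exons run from 7.64 per Mb at 40 to 50% GC to 350 at 70 to 80% GC, above introns at every step.

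CpG content was examined apart from GC content. Members had a median of 15 CpG in 401 bp, against 10 in all peaks, 8 in intron peaks and 15 in promoter peaks, and a median observed to expected CpG ratio of 0.383 (0.374 to 0.391), against 0.298 in all peaks. Within coding sequence of 60 to 70% GC, however, the density of members did not climb with CpG number. It was 311 per Mb with 0 to 4 CpG, 323 with 10 to 14, 260 with 20 to 29 and 245 (197 to 301) with 30 or more. In introns of the same GC content it was 257 per Mb with 10 to 14 CpG, 168 with 20 to 29 and 129 (101 to 162) with 30 or more. CpG-rich coding sequence thus held more peaks per Mb than introns of like GC content and CpG number. The same held with 10 to 14 CpG, so the difference was not confined to CpG-rich sequence. In 3' UTRs of that GC content the density was 291.3 per Mb (241.5 to 348.3) with 20 to 29 CpG. It was 268.5 (185.9 to 375.2) with 30 or more. These intervals overlapped those of coding exons.

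The difference in composition was widest at the wobble position of codons. Of coding bases inside the peaks, 76.7% were G or C at codon position 3, against 55.9% in all coding sequence that could hold a member. At position 1 the share was 67.2% in the peaks, against 55.2% in all coding sequence, and at position 2 it was 51.2% in the peaks, against 42.3%. The difference was 20.8 percentage points at position 3, 12 at position 1 and 8.88 at position 2. Among codons, CCG (proline) made up 1.48% in the peaks and 0.608% in all coding sequence, a ratio of 2.43, and CGG (arginine) followed with a ratio of 2.34 and GCG (alanine) with 2.27. CTG (leucine), the commonest codon in the peaks, made up 6.21%, against 3.62% in all coding sequence. Neither codon positions nor codons were compared at like GC content.

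**Figure D2:**
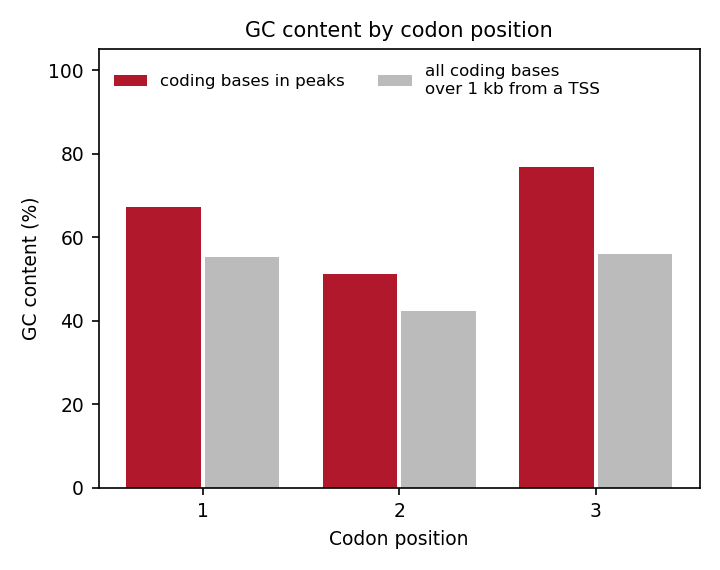
GC content in percent at codon positions 1, 2 and 3, for coding bases inside coding-exon peaks (left bar) and for all coding bases over 1 kb from a TSS (right bar). At position 3, the widest gap, the bar is 76.7% in the peaks, against 55.9% in all coding bases.

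Short motifs were counted in the 301 bp around each summit on both strands. The GC box GGGCGG, bound by SP1-type factors, lay in 30.5% of member windows, against 24.9% of other peaks and 11.0% of windows tiling the coding sequence. Among windows of 60 to 70% GC the shares were 31.1% (28.1 to 34.3%) in members, 33.5% in other peaks and 31.9% in coding sequence, so the excess was not seen at like GC content. The E-box CAGCTG lay in 36.9% (33.7 to 40.2%) of member windows of that GC content, against 30.8% of other peaks and 32.9% of coding windows. The ETS core CCGGAA lay in 12.9% (10.7 to 15.3%), against 8.90% of other peaks and 10.6% (10.1 to 11.2%) of coding windows. The AP-1 element TGACTCA was found in 2.87%, against 2.84% of other peaks and 2.31% of coding windows. A match is a run of letters in the window and not a bound site.

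Members were well placed in unique sequence. Words of 32 bases at and around each summit were counted by exact match on chromosomes 1 to 22 and X. Their median exceeded a single copy for 3 members (0.207%, 0.043 to 0.603%). The share was 1.36% of 3' UTR peaks, 6.22% of intron peaks and 4.11% of all peaks. The 3, named after this was seen, were NONO with a median of 34 copies, and MUC5AC and NACA with 2 each.

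The place of a member within its gene was compared with the coding sequence that could hold one. In canonical transcripts, internal coding exons held 847 of 1395 members (60.7%) and 69.6% of the sequence, with 72.1 peaks per Mb. Last coding exons held 343 (24.6%) at 112 per Mb, first coding exons 98 (7.03%) at 113 per Mb, and genes with a single coding exon 107 (7.67%) at 89.1 per Mb. Over the GC-based number these came to 1.52 (1.42 to 1.62) for internal, 1.65 (1.48 to 1.83) for last, 1.51 (1.23 to 1.84) for first and 1.18 (0.970 to 1.43) for single exons. Internal exons of at least 300 and under 1000 bp had 114 members per Mb and those under 100 bp had 57.5, yet the ratios to the GC-based number were 1.47 (1.24 to 1.75) and 1.78 (1.45 to 2.17). Along the transcript from 5' to 3', its 5 equal parts had ratios of 1.58, 1.63, 1.49, 1.48 and 1.5, with overlapping intervals.

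Peaks and exons were of similar size, and many peaks ran past their exon. Of 863 members in internal exons of any transcript, 460 (53.3%) were longer than the exon and 209 (24.2%) covered it whole. The median internal exon with a member was 183 bp long. Of all members, 598 (41.2%) lay entirely in coding sequence and 1140 (78.6%) had at least 50% of their length there. Summits showed no side within internal exons, with 450 of 863 (52.1%, 48.8 to 55.5%) nearer the start.

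Introns next to coding exons were compared with the exons themselves to see whether peaks stopped at exon edges. Here a summit or base in internal exons of 2 overlapping genes, as 5 summits were, was counted for each of them, which put 852 summits in internal exons and not 847. A summit or base in a short intron could be counted both after an exon and before the following exon. The values before and after exons are therefore not independent. Internal coding exons carried 72.5 summits per Mb (67.7 to 77.5), against 49 (44.7 to 53.5) in the 100 bp of intron before them, 56.5 (51.8 to 61.5) in the 100 bp after them, and 22.6 and 23.6 at 300 to 500 bp on either side. Over the GC-based number, however, the exons stood at 1.53 (1.43 to 1.63), the 100 bp before at 1.54 (1.41 to 1.68), the 100 bp after at 1.66 (1.52 to 1.81), and the introns at 300 to 500 bp at 1.45 on both sides. The exon held the most summits per Mb, but its ratio to the GC-based number was not above those of the neighbouring introns beyond the intervals. At the exon end the ratio was lower inside than outside, at 1.34 (1.14 to 1.58) in the last of the 5 equal parts of the exon, against 1.81 (1.61 to 2.03) in the next 50 bp of intron. At the exon start it was 1.66 (1.42 to 1.93) in the first part. In the 50 bp of intron before the exon it was 1.44 (1.26 to 1.63), with overlapping intervals. Single bins differed as much away from the edges. The ratio was 1.14 (0.89 to 1.43) at 450 to 400 bp before the exon and 1.75 (1.46 to 2.08) at 350 to 300 bp before it. The difference at the exon end is therefore not set apart from the scatter between bins.

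**Figure D3:**
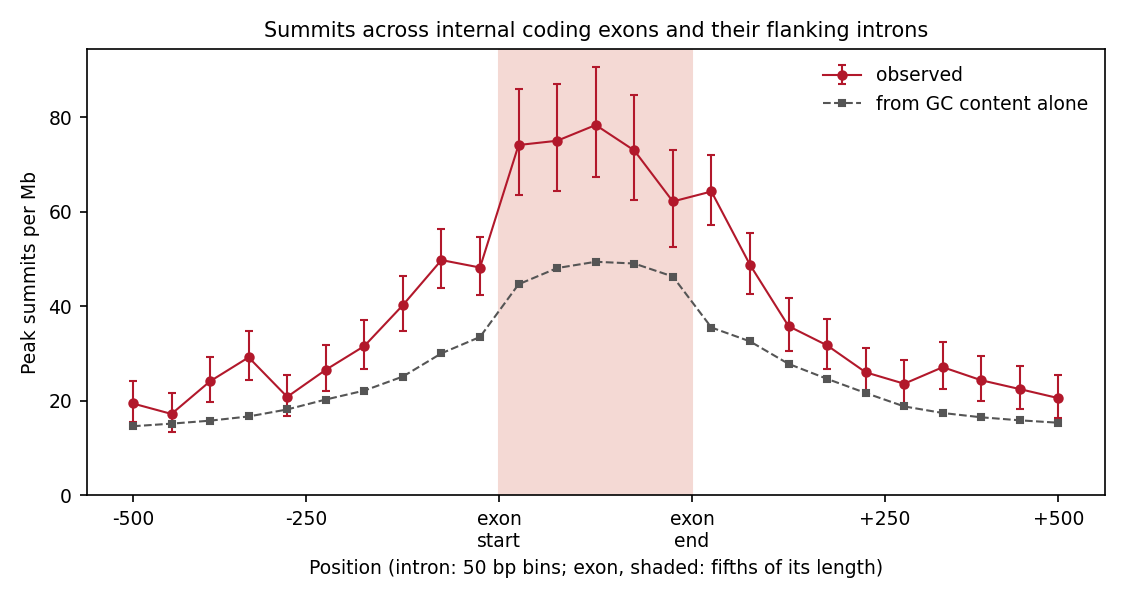
Peak summits per Mb across internal coding exons (shaded, in 5 equal parts from start to end) and 500 bp of intron on either side in 50 bp bins; red points are observed densities with 95% Poisson intervals, and grey squares the density given by GC content alone. Observed density reaches 78.3 per Mb in the middle of the exon, over a grey line at 49.4, and falls on both sides with it.

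Members gathered near TSSs although the rule kept them over 1 kb away. The median distance to the nearest TSS was 3355 bp, and 420 members lay at 1 to 2 kb, with 146 per Mb of coding sequence there. Over the GC-based number the ratio was 1.81 (1.64 to 1.99) at 1 to 2 kb, 1.72 (1.58 to 1.88) at 2 to 5 kb, 1.55 (1.37 to 1.74) at 5 to 10 kb, 1.13 (0.948 to 1.34) at 10 to 20 kb, 0.921 (0.728 to 1.15) at 20 to 50 kb and 0.717 (0.418 to 1.15) beyond 50 kb. Introns at the same distances had 1.84 (1.76 to 1.92), 1.49 (1.44 to 1.54), 1.29 (1.24 to 1.35), 1.14 (1.09 to 1.20), 0.857 (0.813 to 0.902) and 0.472 (0.434 to 0.514). Coding exons were therefore above introns at 2 to 10 kb and not at 1 to 2 kb or beyond 10 kb, where the intervals overlapped. Only 17 members lay over 50 kb from a TSS, the farthest in LRFN2, a synaptic adhesion protein named after its value was seen, at 194833 bp. LncRNA start sites, which the rule did not use, lay within 1 kb of 45 members (3.10%).

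Chromosomes differed widely. Chromosome 17 had 203 members per Mb of coding sequence, chromosome 19 had 200 and chromosome 16 had 187, against 28.7 on chromosome 5, 22.6 on chromosome 4, 20.4 on chromosome X and 17.4 on chromosome 18. Over the GC-based number the ratios were 2.42 (2.06 to 2.82) on chromosome 17, 2.03 (1.67 to 2.45) on 16 and 1.99 (1.74 to 2.28) on 19, and were lowest on 5 at 0.702 (0.445 to 1.05), on 18 at 0.629 (0.204 to 1.47) and on X at 0.563 (0.322 to 0.914). Intron peaks had the same 3 chromosomes at the top, with 2.03 on 17, 1.91 on 19 and 1.74 on 16, and stood at 0.934 on 5, 0.604 on 18 and 0.165 on X. The median recovered background at members was 2.46 fragments on chromosome 17 and 2.59 on chromosome 8, against 0.698 on chromosome X. That is the lowest recovered background of any peak. It was found at 9 of the 16 members on chromosome X, against 29 of all 1450 members. The copy number of these chromosomes in HCT116 was not examined, and its part in the differences was not tested.

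Chromosome X held 16 members in 15 genes, a ratio of 0.563 (0.322 to 0.914), while its introns held 36 peaks at a ratio of 0.165 (0.116 to 0.229). Coding exons thus made up 9.04% of the peaks of chromosome X, against 4.35% over all chromosomes, and numbered 3.62 times (2.07 to 5.87) what the GC-based number gives when scaled to all peaks outside promoters on that chromosome. The members were low peaks, with pileups of 5 to 9 fragments. ARAF, a RAF family kinase, was the gene with 2 of them, in coding exons 3 and 5 with folds of 4.12 and 5.30. RBM10, a splicing regulator, had the highest recovered background, 2.05 fragments, and a fold of 3.28. These genes of chromosome X are named after their values were seen, and NONO, with its median of 34 copies of the words around the summit, is among the 16.

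**Figure D4:**
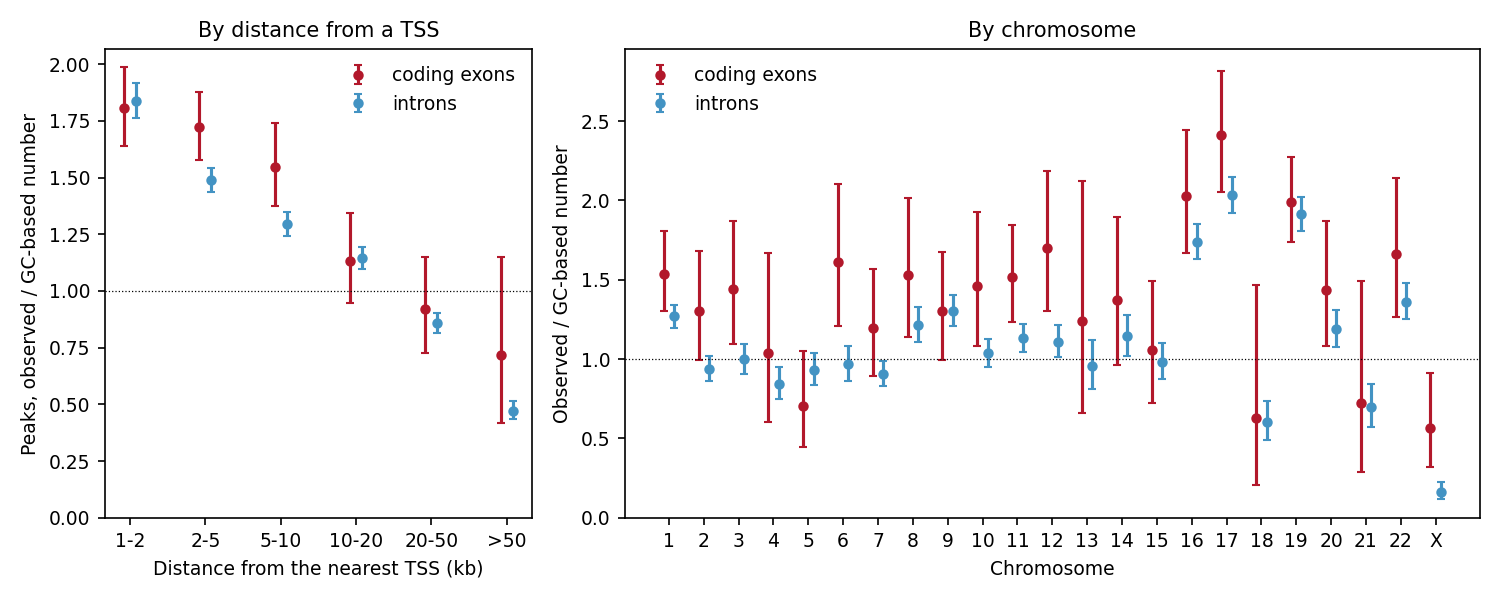
Left, peaks observed over the number given by GC content, by distance from the nearest protein-coding TSS in kb; right, the same by chromosome. Red points are coding exons, blue points introns, bars 95% Poisson intervals, and the dotted line is 1; coding exons go from 1.81 at 1 to 2 kb to 0.717 beyond 50 kb, and on chromosome X stand at 0.563 over 0.165 in introns.

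The members fell in 1150 genes. Of 17361 protein-coding genes with coding sequence that could hold a member, these were 6.62%, and 212 genes (1.22%) had 2 or more members, which together held 512 (35.3%) of all members. The share of genes with a member was higher where more coding sequence could hold one, at 2.21% with up to 500 bp and 21.6% with over 4000 bp. Genes with a member also carried peaks elsewhere. A promoter peak, at any TSS of the gene, was found in 713 of the 1150 (62%, 59.1 to 64.8%), against 29.2% (28.5 to 29.9%) of genes without a member. Within classes of equal coding length the shares ran from 58.8 to 63.8% with a member, against 24 to 32.2% without. At the 5' end of the gene alone the share was 35.9% (33.1 to 38.8%) of genes with a member, against 18.1% (17.5 to 18.6%) of genes without. These shares were not adjusted for GC content.

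The genes with the most members were long and rich in GC. ZNF469, a zinc finger protein linked to brittle cornea syndrome, had 8, all in a coding exon of 13409 bp. Their pileups ran from 12 to 17 and their folds from 3.05 to 5.29, with 65.6 to 74.1% GC. PLEC, the cytoskeletal linker plectin, had 7 in 4 exons, with 3 in its long exon 31, folds from 3.16 to 4.41 and the high recovered backgrounds of 3.05 to 3.76 fragments. BAHCC1, a chromatin reader with a BAH domain, had 6 in 5 exons, with folds of 3.59 to 5.40, and pileups of up to 21. Against the GC-based number for their coding sequence these came to 3.47 for ZNF469, 2.39 for PLEC and 6.37 for BAHCC1.

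ARHGEF17, a guanine nucleotide exchange factor, had 5 members, whose folds were 4.82 and 4.2 in coding exon 1, 6.06 in exon 3, 5.43 in exon 10 and 4.2 in exon 11, at 9.46 times the GC-based number. APC2, a homologue of the WNT pathway's APC, had 5, of which 4 lay in its last exon of 8090 bp with folds of 4.33 to 5.77. CIC, a transcriptional repressor of the RAS pathway's targets, had 5, of which 4 lay in its first coding exon. SETD1B, a histone H3 lysine 4 methyltransferase, SPTBN5, a beta spectrin, ZAN, a sperm protein, and ZBTB4, a binder of methylated DNA, had 4 each, and so did AHDC1, KIF19 and EVPL. The genes were picked by this count, so the ratios describe them and support nothing.

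Gene groups were compared over the share of their genes with a member, beside 6.62% of all genes. Lists of cytoskeletal and matrix proteins differed among themselves. Plakins, which link the cytoskeleton to junctions, had a member in 3 of 7 genes, with 7 peaks in PLEC, 4 in EVPL and 2 in PPL. Spectrins, filamins and actinins had one in 5 of 17 genes, with 4 peaks in SPTBN5 and 3 in SPTB, and myosin heavy chains in 9 of 39, led by MYO15A with 3, MYH14 and MYO18A. Fibrillins and their relatives had one in 5 of 13 genes, with 3 peaks in FBN3 and 2 in LTBP2, and collagens in 9 of 44, with 3 peaks in COL7A1, the anchoring fibril collagen. Dyneins had one in 2 of 15 genes, laminins and basement membrane proteins in 2 of 18, tubulins in 1 of 17, and keratins in 0 of 53. Given the GC content of their coding sequence, the ratios were 1.79 (0.954 to 3.06) for plakins, 1.70 (0.878 to 2.97) for spectrins and their kin, 1.82 (1.02 to 3.0) for myosins, 1.63 (0.706 to 3.22) for fibrillins and 1.31 (0.652 to 2.33) for collagens, 1.11 (0.303 to 2.85) for dyneins, 0.794 (0.216 to 2.03) for laminins and 0.895 (0.023 to 4.99) for tubulins, against 1.54 for all coding exons. The intervals of these 8 lists include the value of all coding exons, and the interval of keratins, with an upper limit of 1.35, does not.

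The share of genes with a member also differed among lists of signalling, adhesion and channel genes. WNT pathway genes had a member in 7 of 31 genes with 14 peaks, at a ratio of 2.48 (1.36 to 4.16) whose interval includes the 1.54 of all coding exons, and the peaks were 5 in APC2, 3 in BCL9L, a beta-catenin cofactor, and 2 in LRP5, a WNT coreceptor, among others. Notch receptors and ligands had one in 3 of 9 genes, with 3 peaks in NOTCH4, 2 in NOTCH3 and 1 in JAG2. Voltage-gated calcium and sodium channels had one in 7 of 20, with 3 peaks in CACNA1G, and cadherins and CELSR proteins in 6 of 21, with 2 each in DCHS1, CELSR3 and CDH15. The median coding sequence that could hold a member was 3134.5 bp in these channels and 3112 bp in these cadherins, against 622 bp over all genes. Receptor tyrosine kinases had one in 2 of 38, with 2 peaks in EPHB4, and integrins in 2 of 26, with 3 peaks in ITGB4, the beta subunit of hemidesmosomes. Of 22 genes of intestinal epithelium, TJP3 and VIL1, the brush border protein villin, had 1 each. Neuronal genes had one in 4 of 24, with 3 peaks each in SHANK1 and GRIN2D, and striated muscle genes in 3 of 20, with 3 in the calcium release channel RYR1. Over the GC-based number, the ratio was 2.07 (0.761 to 4.51) for Notch genes, 1.52 (0.695 to 2.89) for channels and 1.19 (0.57 to 2.19) for cadherins. It was 0.897 (0.185 to 2.62) for receptor tyrosine kinases, 1.64 (0.448 to 4.21) for integrins and 0.814 (0.099 to 2.94) for intestinal genes. It was 2.24 (0.969 to 4.42) for neuronal and 0.875 (0.284 to 2.04) for striated muscle genes. The intervals of all these lists include 1.54.

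Among chromatin regulators, acetyltransferases, deacetylases and their corepressors had a member in 4 of 22 genes at a ratio of 2.5 (1.00 to 5.15), with 2 peaks each in the acetyltransferase EP300 and the corepressor SIN3B. Histone lysine methyltransferases had one in 3 of 28, of which SETD1B had 4 peaks, SETD1A 1 with a fold of 5.62 and EHMT2 1. Demethylases had one in 2 of 19, with 2 peaks each in KDM2B and KDM4B, and remodelling ATPases and partners in 1 of 23, SRCAP, with a fold of 6.27. Zinc finger genes named ZNF had one in 33 of 486 (6.79%), close to the share of all genes, at a ratio of 1.90 (1.40 to 2.53), led by ZNF469, ZNF703 and ZNF628. The intervals of the ratios for both the acetyltransferase group and the ZNF genes include 1.54. Of the PRMT family, 6 of 9 genes had coding sequence that could hold a member and 0 had one, so a share of up to 50% is possible. PRMT1 had only 2 such bases and CARM1 had 263, so their exons could hardly be observed here, while 4 and 12 peaks of other classes lay in their gene bodies.

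Some groups had no member. Olfactory receptors had one in 0 of 189 genes, so a share of up to 1.59% is possible. Keratins had one in 0 of 53 (up to 5.66%) and protocadherins in 0 of 64 (up to 4.69%). These shares allow 3 genes for a count of 0. The exact 95% intervals reach further, to 1.93%, 6.72% and 5.60%. The GC-based number was 1.76 for olfactory receptors and 2.74 for keratins, and the ratio was at most 2.10 and 1.35. For protocadherins, adhesion proteins many of them encoded in a gene cluster on chromosome 5, it was 9.19, and the ratio was at most 0.401. Genes of glycolysis (0 of 13), of fatty acid and cholesterol synthesis (0 of 22) and of liver (0 of 22) also had none, with GC-based numbers of 0.291, 1.91 and 0.573. Cytosolic ribosomal proteins had one in 1 of 46, the muscle gene RPL3L. Replication-dependent histone genes have no coding sequence over 1 kb from a TSS and could not hold a member.

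**Figure D5:**
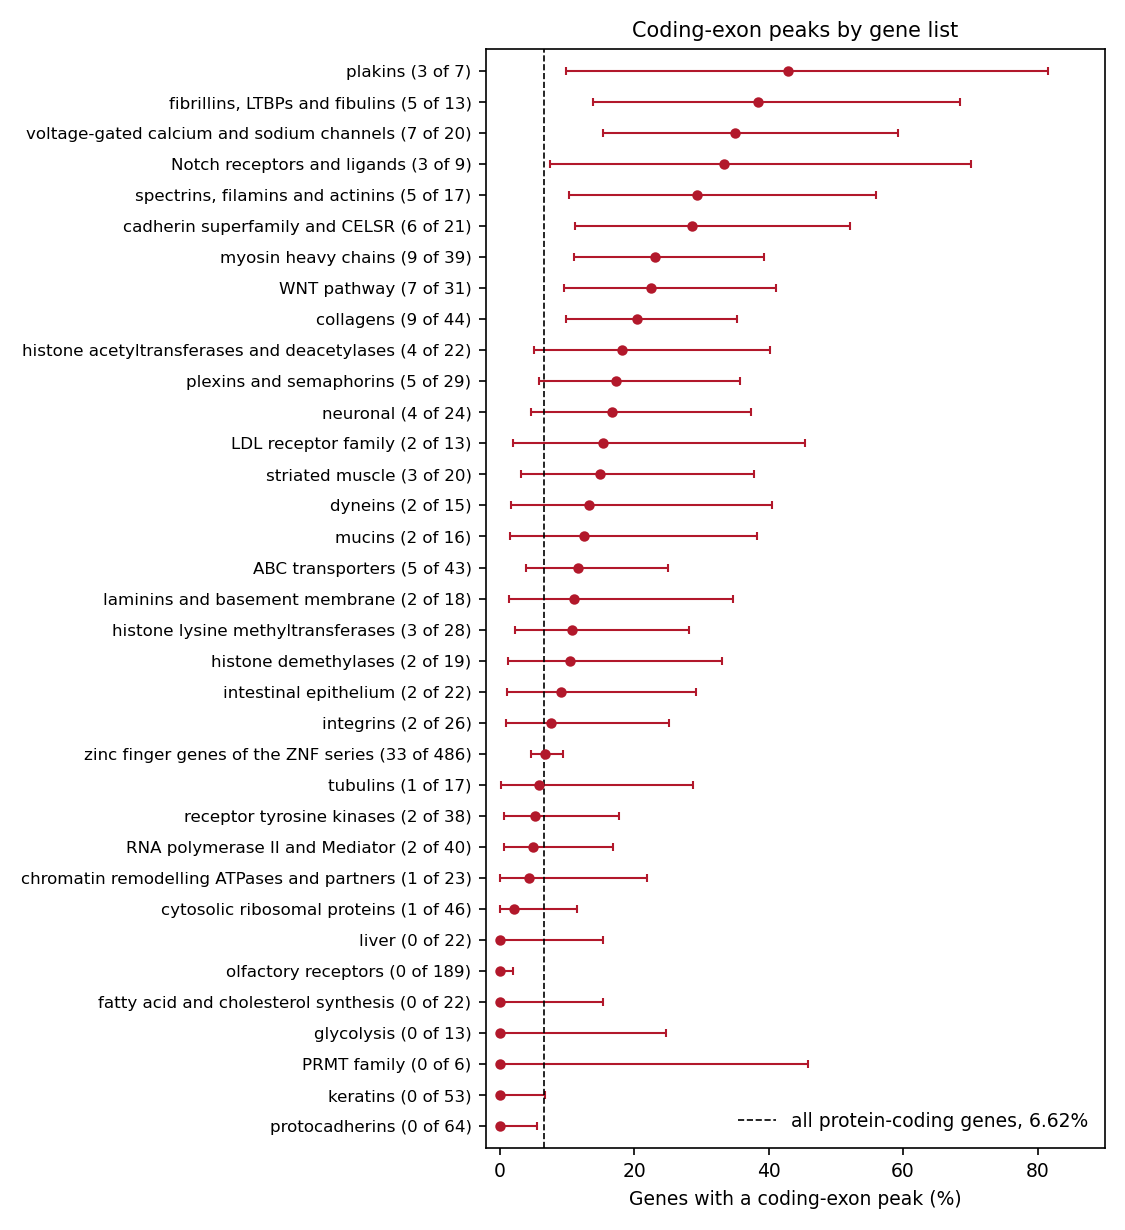
Share of genes with a coding-exon peak, in percent, for each gene list with the number of genes that had one of those that could; bars are exact 95% intervals and the dashed line marks all protein-coding genes, 6.62%. Plakins stand highest at 3 of 7 genes, and olfactory receptors, keratins and protocadherins at 0.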

How the data were processed

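One H4R3me2a immunoprecipitation library and 1 input library of HCT116 cells were used. The submitters' processing notes name Bowtie2, MACS2, deepTools and the build GRCh38, with versions not given in the sources used here, nor settings or read depth. The peak table compares the 2 libraries, with no pooling of replicates. Per the file headers, the deposited pileup is a signal (fragments at the summit), the deposited fold enrichment is a ratio over the local background, and the deposited −log10 p and q-values are the authors' own for each peak. Depth is therefore known only through the pileup.

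Summits were placed in GENCODE release 44. The background was recovered as (pileup + 1) / fold − 1. GC content and CpG were counted in 401 bp around each position. Expected numbers apply the rate of peaks outside promoters in 2% steps of GC content. Shares have exact Clopper-Pearson intervals, densities exact Poisson intervals, and medians binomial-rank intervals, all at 95%. A count of 0 genes allows 3 counts. No p-value was computed, since peaks and genes of 1 library are not replicates. Named genes were those of the 10 highest-fold and 5 widest members, the 10 genes with most members, up to 3 per list, and PRMT1 and CARM1. Some genes picked by this rule are not reported. A member was assigned to the canonical transcript where possible. The 36 gene lists and the members were chosen with earlier results of these data known. Alternatives were stricter peak sets, other TSS distances, at least 50% of the peak in coding sequence, canonical coding sequence only, and merging of peaks. The scripts were tested on simulated data. Python 3.11.15, NumPy 2.4.6, pandas 2.3.3 and SciPy 1.17.1 were used.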

Additional observations from a re-analysis of the deposited data

Results flagged for a closer look

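Of the 4 mitochondrial peaks in the list, which the comparisons leave out, 3 had their summit in coding sequence. MT-ND1, a subunit of respiratory complex I, held peaks with folds of 3.47 and 3.66, and MT-CYB, a subunit of complex III, held 1 with a fold of 4.77. Mitochondrial DNA carries no histones, so these peaks stand outside the main measurement. Their pileups were 22, 15 and 16 fragments over recovered backgrounds of 5.63, 3.37 and 2.56 fragments, against medians of 11 and 1.81 at coding-exon peaks. Their cause was not tested.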

How the results depend on the processing

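The number of coding-exon peaks was 58 with a −log10 q of 5 or more, 772 in the 50% of peaks with the higher q, and 774 over 3 kb from a TSS, and the genes with a member numbered 58, 649 and 619. As a share of all peaks, members were 4.63% in the 50% with the higher −log10 q, 5.59% over 500 bp from a TSS and 2.32% over 3 kb. They were 4.06% under a rule of at least 50% of the peak in coding sequence. That rule ignores where the summit lies and so admits peaks outside the 1450. In the same order, their density over all sequence was 7.67, 8.14, 5.29 and 6.72 times. Median GC content was 64.1% at a −log10 q of 5 or more, 63.8% in the 50% with the higher −log10 q and 62.6% after merging. Genes with a promoter peak were 15.5% at a −log10 q of 5 or more and 49.8% in the 50% with the higher −log10 q. They were 45.9% over 500 bp, 71.4% over 3 kb and 55% after merging. Each alternative sought promoter peaks in its own peak set, so the stricter and merged sets hold fewer promoter peaks as well. A changed TSS distance also redefined the promoter, to within 500 bp or 3 kb. The shares at those distances therefore do not count the same promoters as the main rule. Scaling to chromosomes, chosen after seeing the data, moved the ratio to the GC-based number to 1.41. The share in internal exons ran from 58.2 to 61.2% under every alternative run. No paired analysis was possible because there is 1 library of each kind. Low pileups, unknown depth and the lack of replicates limit all of these values, and GC content was handled only by a rate over 2% steps.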
